A study of Homo sapiens with 8 samples.

Results

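The AP-1 genes are described here by 10 of their members: FOS, FOSB, FOSL1 and FOSL2 of the FOS family, JUN, JUNB and JUND of the JUN family, and the related factors ATF3, BATF3 and MAFF. They were chosen by gene symbol, with earlier results of these data known, and all 10 were among the 21059 genes measured. RNA was sequenced from MDA-MB-157 cells, a human breast cancer line labelled as estrogen receptor negative. No gene was altered in either group. Cells were conditioned in low-glucose medium and then held without serum in DMEM for 48 hours, either at 5 mM glucose (low glucose, 4 libraries) or at 25 mM glucose (high glucose, 4 libraries). The question was how AP-1 transcripts differ when the cells meet a glucose concentration used to model hyperglycemia. A single cell line was used, no osmotic control was among the 8 libraries, and the labels do not say whether the replicates came from separate cultures, so the p-values measure the spread between these libraries, which may be technical.

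AP-1 is a family of paired transcription factors joined through a leucine zipper, next to a basic region that contacts DNA. FOS proteins do not pair with themselves and bind DNA mainly as partners of JUN proteins, whereas JUN proteins also pair among themselves. FOS, FOSB and JUNB are classic immediate early genes, switched on within minutes by growth factors and stress through MAP kinases. FOSL1, which encodes FRA-1, is known in breast cancer cells for its link with motility and invasion. ATF3 is a stress-induced factor, BATF3 is best known in dendritic cells, and MAFF is a small MAF protein that has a zipper but no transactivation domain.

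The promoters of the members carry some of the DNA motifs that AP-1 and its relatives bind. RefSeq (GRCh38.p14) gave 10 promoter entries for 8 of the 10 members, and each was searched on both strands from 250 bases before to 50 bases after the transcription start. The first motif searched was TGANTCA with N as any base, a loose form of the TPA response element. The others were the cyclic AMP response element TGACGTCA, its variant TGACATCA and the CArG box, the binding site of serum response factor. Of all 35116 RefSeq promoters of this length, 7.71% held TGANTCA, 1.85% held TGACGTCA, 2.61% held TGACATCA and 1.29% held a CArG box. The 4 promoters with a match before the start are shown with the motif in capitals, because they belong to 2 genes whose transcripts were higher at high glucose (MAFF and ATF3), 1 whose transcript was lower (JUND) and 1 that did not pass the test (JUN). The MAFF sequence is chr22:38201744-38201993 on the plus strand, ATF3 is chr1:212565157-212565406 on the plus strand, JUN is chr1:58784048-58784297 on the minus strand and JUND is chr19:18281623-18281872 on the minus strand.
MAFF: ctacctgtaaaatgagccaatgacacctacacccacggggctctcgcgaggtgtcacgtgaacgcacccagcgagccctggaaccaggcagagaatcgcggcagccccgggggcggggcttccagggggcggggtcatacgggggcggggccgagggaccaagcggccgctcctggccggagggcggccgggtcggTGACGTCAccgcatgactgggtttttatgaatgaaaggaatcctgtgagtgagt
ATF3: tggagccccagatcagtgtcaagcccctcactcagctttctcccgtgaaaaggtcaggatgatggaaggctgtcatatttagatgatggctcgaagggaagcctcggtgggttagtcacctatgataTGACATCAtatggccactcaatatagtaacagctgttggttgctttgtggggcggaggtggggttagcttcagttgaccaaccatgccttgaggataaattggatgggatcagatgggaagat
JUN: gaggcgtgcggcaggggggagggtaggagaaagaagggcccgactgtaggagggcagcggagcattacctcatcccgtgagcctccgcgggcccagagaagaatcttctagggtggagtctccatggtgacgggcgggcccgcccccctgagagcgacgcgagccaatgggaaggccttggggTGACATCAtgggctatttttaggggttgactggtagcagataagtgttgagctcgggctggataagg
JUND: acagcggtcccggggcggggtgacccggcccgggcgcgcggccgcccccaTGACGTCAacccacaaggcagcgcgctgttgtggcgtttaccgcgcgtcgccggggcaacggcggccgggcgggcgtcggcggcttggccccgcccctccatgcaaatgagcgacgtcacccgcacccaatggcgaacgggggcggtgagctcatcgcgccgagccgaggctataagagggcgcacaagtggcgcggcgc
TGACGTCA began at -54 in the first of the MAFF entries and at -200 in JUND, and TGACATCA began at -123 in the first of the ATF3 entries and at -67 in JUN. FOSL2 held TGANTCA at 5, just after the start. None of the 4 motifs was found in the windows of FOS, FOSB or JUNB or in the second entries of ATF3 and MAFF. This says only that these letters were not there. Sites more than 250 bases before the start were outside the search, so the promoters may hold these motifs further upstream. No promoter of a member held more than 1 match. FOSL1 and BATF3 had no entry.

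Values are read counts scaled to a common library total (CPM) with TMM factors, and changes are differences in log2(CPM + 1) between high and low glucose, which understate the change of low genes. The 8 libraries held an estimated 9721648 to 12482546 reads in the table, and 3 reads were worth 0.212 to 0.267 CPM. These depths cover counting error only, since reads are not independent molecules. Of all 21059 genes, 46.8% passed an adjusted p of 0.05 in limma, 22.0% as higher and 24.8% as lower at high glucose, and 44.5% had groups that did not overlap, so a call by itself was common. High glucose replicate 1 stood apart: its values, relative to the mean of the other libraries of its group, fell with transcript length (Spearman rho -0.54 across 14227 genes). Measured the same way, rho was 0.18 to 0.36 in the other high glucose libraries, whose reference mean includes replicate 1. At low glucose rho was -0.11 to 0.038. The estrogen receptor gene ESR1 was at a mean of 0.0902 CPM, and the mesenchymal filament gene VIM at 3529 CPM. Of the 9 line markers, 1 rose (EPCAM, log2 change 0.54) and 4 fell: ERBB2 (-0.69), KRT8 (-0.57), VIM (-0.47) and KRT18 (-0.46). The keratin genes KRT18 and KRT8 were at means of 202 and 110 CPM, and the progesterone receptor gene PGR at 5.05 CPM. Of 4 markers of other cell types, PTPRC of leukocytes was at a mean of 0.111 CPM and CD68 of macrophages at 11.6 CPM and neither passed the test, whereas the endothelial genes PECAM1 (log2 change 0.63) and VWF (-0.95) moved in opposite directions from low levels. Their part in the results was not tested.

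Among the 10 AP-1 members, 5 were higher at high glucose (MAFF, FOSL1, FOS, JUNB and ATF3), 1 was lower (JUND), and 4 did not pass the test (FOSB, FOSL2, JUN and BATF3). These counts stand beside 22.0% of all genes higher and 24.8% lower. All genes include 6687 with a mean under 1 CPM, against 1 of the 10 members. With those genes left out, 9631 genes and 6 members still passed, so the share called among the genes kept was above 46.8%. The counts therefore do not show that members were called more often than genes at like levels. The lists below are set beside the same shares over all genes, low genes included, and carry the same limit. Members and lists were chosen with earlier results of these data known, so their counts are not independent evidence. The groups did not overlap for the 6 that passed, as for 44.5% of all genes. The median change of the 10 members was 0.55 on the log2 scale, against -0.0092 over all genes. MAFF, FOSL1 and FOS ranked 40, 41 and 59 among the 21059 genes by the size of their rise. In cultures measured in bulk, fewer cells that express a gene and less RNA of it per cell cannot be told apart.

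**Figure D1:**
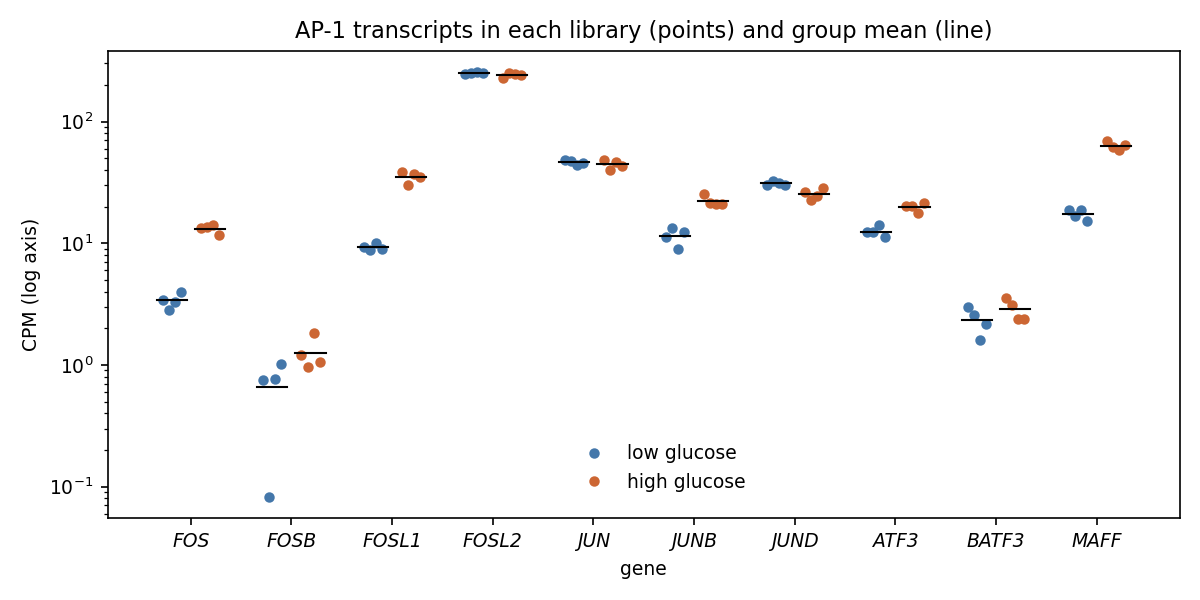
CPM of the 10 AP-1 transcripts (log axis) in each of the 4 low glucose (blue) and 4 high glucose (orange) libraries, with the group mean as a line. The points of FOS, FOSL1, JUNB, ATF3 and MAFF lie higher at high glucose with no overlap, those of JUND lie lower, and those of FOSB, FOSL2, JUN and BATF3 overlap.

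FOSL1 (chromosome 11, 65892049 to 65900545) was at 9.25, 8.86, 10.1 and 9.03 CPM in the low glucose libraries and at 38.3, 30.3, 36.9 and 35.3 CPM in the high glucose libraries. Every high glucose value was higher than every low glucose value, and the lowest of them was in replicate 2. The mean went from 9.31 ± 0.553 (SD, n = 4) to 35.2 ± 3.48 CPM (SD, n = 4), a ratio of 3.78, and the log2 change was 1.81 (SE 0.0779, limma adjusted p = 4.49e-06). A FOSL1 pseudogene, FOSL1P1, shares 0.957% of the 31-base words of the FOSL1 transcript and is not analysed here.

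FOS (chromosome 14, 75278828 to 75282230), the founding member of the family, was at 3.42, 2.82, 3.31 and 4.01 CPM at low glucose and at 13.3, 13.5, 14.1 and 11.7 CPM at high glucose. The groups were apart by more than the whole range within either of them. The mean went from 3.39 ± 0.489 to 13.1 ± 1.01 CPM (SD, n = 4 each), a ratio of 3.88, with a log2 change of 1.69 (SE 0.0978, limma adjusted p = 1.41e-05).

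FOSL2 (chromosome 2, 28392858 to 28417317), which encodes FRA-2, was at 246.9, 251.8, 255.2 and 249.2 CPM at low glucose and at 228.8, 249.3, 246.6 and 243.1 CPM at high glucose. High glucose replicates 1, 3 and 4 lay below the low glucose range and replicate 2 lay within it, so the groups overlapped. The log2 change was -0.05 with a 95% interval of -0.12 to 0.02 (limma adjusted p = 0.201). With quantile normalization the change was -0.12 and passed the test (adjusted p = 0.0280), whereas the adjusted p was 0.125 to 0.873 in the other 13 alternatives.

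FOSB (chromosome 19, 45467996 to 45475179), a close relative of FOS, was near the limit of detection. It was at 0.750, 0.0828, 0.764 and 1.02 CPM at low glucose and at 1.20, 0.957, 1.81 and 1.07 CPM at high glucose, and the value in low glucose replicate 2 is worth about 1 read. The groups overlapped between low glucose replicate 4 and high glucose replicate 2. The log2 change was 0.47 with a 95% interval of -0.03 to 0.97 (limma adjusted p = 0.112), so a change was not detectable at this depth. It was 1.09 with a pseudocount of 0.1 and 0.28 without low glucose replicate 2, and neither passed the test.

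JUN (chromosome 1, 58780791 to 58784047), the founding JUN gene, was at 48.5, 47.0, 43.6 and 46.0 CPM at low glucose and at 48.5, 40.2, 46.8 and 43.5 CPM at high glucose. The highest values of both groups were alike, and the lowest of all was in high glucose replicate 2. The log2 change was -0.05 with a 95% interval of -0.20 to 0.10 (limma adjusted p = 0.575). Without high glucose replicate 2 it was 0.000102.

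JUNB (chromosome 19, 12791486 to 12793315), an immediate early gene and a weaker activator than JUN, was at 11.3, 13.3, 8.92 and 12.5 CPM at low glucose and at 25.6, 21.3, 21.2 and 21.2 CPM at high glucose. The high glucose values were all above the low glucose values, and replicate 1 was above the other 3, which were nearly equal. The mean went from 11.5 ± 1.91 to 22.3 ± 2.17 CPM (SD, n = 4 each), a ratio of 1.94, with a log2 change of 0.91 (SE 0.125, limma adjusted p = 0.000857). Without high glucose replicate 1 the change was 0.84 (adjusted p = 0.00227). JUNB exons overlap those of HOOK2 on the other strand, and reads of these genes cannot be told apart unless counting used strand, which is not stated. HOOK2 itself was at 13.8 ± 1.56 CPM at low glucose and 12.3 ± 0.961 CPM at high glucose (log2 change -0.15, adjusted p = 0.220), and passed the test only without low glucose replicate 2 (-0.23, adjusted p = 0.0497).

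JUND (chromosome 19, 18279694 to 18281622), the JUN gene that is usually expressed steadily in resting cells, was at 30.3, 32.3, 31.3 and 30.3 CPM at low glucose and at 26.4, 22.6, 24.7 and 28.4 CPM at high glucose. It was the member that fell, and its high glucose values spread more than its low glucose values. The mean went from 31.05 ± 0.943 to 25.5 ± 2.47 CPM (SD, n = 4 each), a ratio of 0.822, with a log2 change of -0.28 (SE 0.0672, limma adjusted p = 0.0123).

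MAFF (chromosome 22, 38201994 to 38216511) was at 18.9, 16.7, 18.8 and 15.2 CPM at low glucose and at 69.2, 61.8, 58.6 and 63.5 CPM at high glucose. The lowest high glucose library was far above the highest low glucose library. The mean went from 17.4 ± 1.80 to 63.3 ± 4.45 CPM (SD, n = 4 each), a ratio of 3.64, and the log2 change was 1.81 (SE 0.0818, limma adjusted p = 5.16e-06). Of the 31-base words of the MAFF transcript, 5.89% also occur in other genes, and 967 genes share such words. No other member shared words with more than 1 gene. The effect on the reads counted for MAFF was not tested. MAFF also overlaps exons of PLA2G6, a phospholipase gene that fell from 6.99 ± 1.02 to 4.19 ± 0.623 CPM (SD, n = 4 each; log2 change -0.62, limma adjusted p = 0.00517), opposite to MAFF.

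ATF3 (chromosome 1, 212565407 to 212620777) was at 12.3, 12.3, 14.1 and 11.1 CPM at low glucose and at 20.3, 20.1, 17.6 and 21.5 CPM at high glucose. The groups did not overlap, although replicate 3 came nearest to the other group on both sides. The mean went from 12.5 ± 1.22 to 19.9 ± 1.65 CPM (SD, n = 4 each), a ratio of 1.59, with a log2 change of 0.63 (SE 0.0838, limma adjusted p = 0.000724). BATF3, its neighbor on chromosome 1 (212686417 to 212699840), was at 3.001, 2.57, 1.61 and 2.19 CPM at low glucose and at 3.53, 3.11, 2.39 and 2.40 CPM at high glucose. Its groups overlapped, with a log2 change of 0.21 and a 95% interval of -0.17 to 0.59 (limma adjusted p = 0.331). The change was 0.10 without low glucose replicate 3 and 0.13 without high glucose replicate 1.

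**Figure D2:**
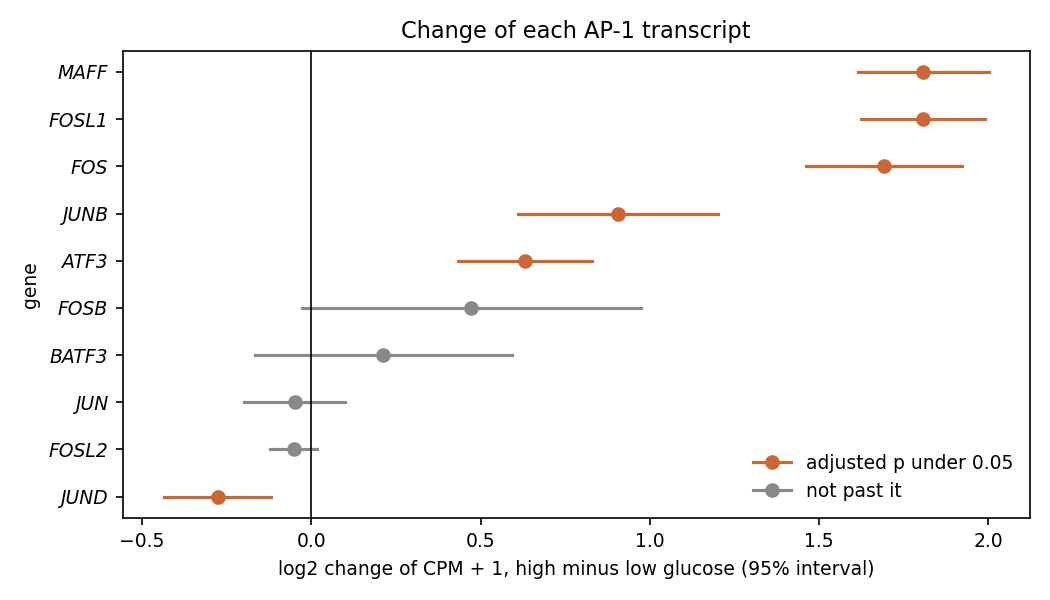
Log2 change of CPM + 1 (high minus low glucose) of each AP-1 transcript, sorted by size, with its 95% interval from limma; orange marks an adjusted p under 0.05. MAFF and FOSL1 (both 1.81) and FOS (1.69) lie apart from JUNB (0.91) and ATF3 (0.63), and JUND (-0.28) is the member whose interval lies below 0.

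High glucose replicate 1, the library that stood apart, was left out in turn. Without it, the change was 1.76 for MAFF, 1.77 for FOSL1, 1.69 for FOS, 0.62 for ATF3 and -0.29 for JUND, and all 6 members that passed the test still did. The 6 calls also held when any other single library was left out. Of the members that had not passed, FOSL2 was at -0.026, JUN at -0.088, BATF3 at 0.13 and FOSB at 0.48 without it, and none passed.

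To compare levels between genes, CPM was divided by the length of the canonical transcript in kilobases. This treats each gene as expressed from that transcript alone. At low glucose FOSL2 was the highest at 37.4 CPM per kilobase, followed by JUND at 16.1 and JUN at 14.2. MAFF (7.33), ATF3 (6.43), JUNB (6.29) and FOSL1 (5.47 CPM per kilobase) came next, and neighbors among these 4 overlapped in their ranges over libraries. BATF3 (2.80), FOS (1.61) and FOSB (0.173 CPM per kilobase) were the lowest, each apart from the next.

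At high glucose FOSL2 was still the highest at 36.0 CPM per kilobase, and MAFF (26.6) and FOSL1 (20.7 CPM per kilobase) stood next, each apart from its neighbors. JUN (13.7), JUND (13.2) and JUNB (12.2 CPM per kilobase) followed, with ranges that overlapped between neighbors. ATF3 (10.2), FOS (6.25), BATF3 (3.42) and FOSB (0.334 CPM per kilobase) were in turn lower, each apart from the next. MAFF and FOSL1 thus stood below JUN and JUND at low glucose and above them at high glucose, and FOS stood below BATF3 at low glucose and above it at high glucose.

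The make-up of the FOS family differed between the groups. Summed over its 4 members, the family was at 44.6 ± 0.794 CPM per kilobase at low glucose and 63.3 ± 1.67 at high glucose (SD, n = 4 each). FOSL2 took 83.7% ± 0.919 of this sum at low glucose and 57.0% ± 2.69 at high glucose, FOSL1 took 12.3% ± 0.536 and 32.6% ± 2.77, and FOS took 3.61% ± 0.516 and 9.87% ± 0.682 (SD, n = 4 each). FOSB stayed under 1% in every library, with 0.387% ± 0.237 at low and 0.524% ± 0.144 at high glucose. FOSL2 remained the most abundant FOS family transcript in both groups. Its transcript is longer (6713 bases) than those of FOSL1 (1702) and FOS (2104). High glucose replicate 1, whose values fell with transcript length, had the lowest FOSL2 share (53.9%) and the highest FOSL1 share (35.6%). In the other high glucose libraries FOSL2 took 56.0% to 60.3%. The part of transcript length in these shares was not tested.

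Within the JUN family the sum was 36.6 ± 1.64 CPM per kilobase at low glucose and 39.2 ± 2.82 at high glucose (SD, n = 4 each), with ranges that overlapped. JUND took 44.05% ± 2.02 at low glucose and 33.8% ± 2.28 at high glucose, JUN took 38.8% ± 1.23 and 35.1% ± 1.47, and JUNB took 17.1% ± 2.19 and 31.1% ± 1.86 (SD, n = 4 each). At low glucose JUNB was the smallest share in every library, and at high glucose the 3 JUN transcripts were near to equal shares.

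**Figure D3:**
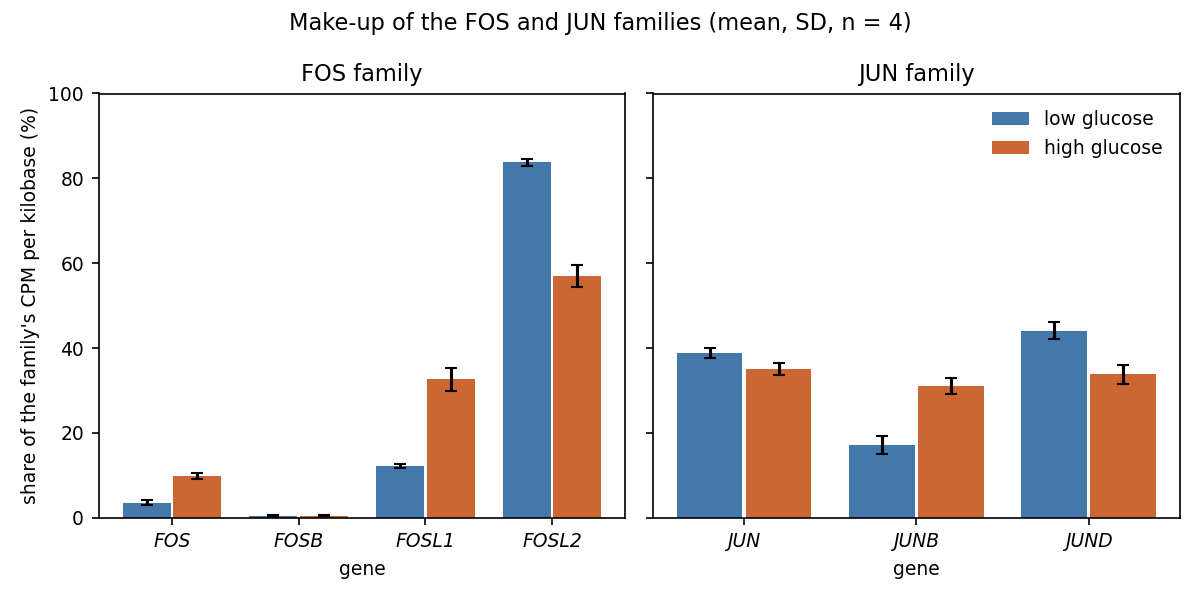
Share of each member in the summed CPM per kilobase of the FOS family (left) and the JUN family (right), as the mean over 4 libraries with SD bars, at low (blue) and high glucose (orange). The FOSL2 bar is lower at high glucose (83.7% against 57.0%) while FOSL1 is higher (12.3% against 32.6%), and JUNB is higher (17.1% against 31.1%).

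The change of one member relative to another of its family was tested with an exact 2-sided permutation test over the 70 assignments of the 8 libraries, on log2 ratios of CPM + 1. The 5 ratios were chosen after the values were seen, and p-values were adjusted over the 5. The smallest p this design allows is 0.0286. FOSL1, FOS and JUNB were already known not to overlap between the groups, and FOSL2 and JUN to change little. Their ratios therefore add no support beyond those calls, and an adjusted p depends on which ratios were put in the set of 5. Relative to FOSL2, FOSL1 was higher at high glucose by 1.86 (p = 0.0286, adjusted p = 0.0476, exact permutation test), and FOS by 1.74 (p = 0.0286, adjusted p = 0.0476, exact permutation test). FOSB relative to FOSL2 differed by 0.52 (p = 0.0571, adjusted p = 0.0571, exact permutation test) and did not pass the test; it was 0.33 without low glucose replicate 2 and 1.14 with a pseudocount of 0.1. JUNB relative to JUN was higher by 0.96 (p = 0.0286, adjusted p = 0.0476, exact permutation test), and the difference for JUND relative to JUN, -0.23, did not pass (p = 0.0571, adjusted p = 0.0571, exact permutation test).

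The genes whose pattern over the 8 libraries lay nearest to that of MAFF were sought among 11296 genes by the root mean square distance of centred log2(CPM + 1) values. MAFF was taken as the member with the largest log2 change, but it was nearly level with FOSL1 (both 1.81), and with a pseudocount of 0.1 the change was 1.93 for FOS, 1.90 for FOSL1 and 1.86 for MAFF. The nearest was FST (distance 0.0953), which encodes the activin-binding protein follistatin, and it went from 18.7 ± 1.01 to 64.0 ± 6.06 CPM (SD, n = 4 each). CSF2RA (0.0958), a subunit of the GM-CSF receptor, went from 4.78 ± 0.347 to 18.3 ± 0.964 CPM (SD, n = 4 each). The third was FOSL1 itself (0.111). Of the other members compared, FOS ranked 46 at a distance of 0.195, JUNB 591, ATF3 1136, JUN 5960, FOSL2 5998 and JUND 7792. The centred values were not scaled, so the distance largely follows the size of the log2 change, which was 1.72 for FST and 1.74 for CSF2RA. It does not show that genes vary together within a group. FOSB and BATF3 were too low to enter this comparison.

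AP-1 proteins also pair or compete with other factors that have a basic region and a leucine zipper. Of 25 such partners, 10 were higher and 2 lower at high glucose, which is 40% and 8% against 22.0% and 24.8% of all genes. Calls in either direction numbered 12 of the 25, near the 46.8% of all genes. The median change of the 25 was 0.10 on the log2 scale. The other 2 small MAF genes were among the 3 largest rises: MAFG went from 183 ± 3.39 to 607 ± 26.5 CPM (SD, n = 4 each; log2 change 1.72, adjusted p = 3.61e-07) and MAFK from 45.8 ± 2.95 to 129.7 ± 11.7 CPM (SD, n = 4 each; log2 change 1.48, adjusted p = 8.01e-06). All 3 small MAF transcripts were thus higher at high glucose in every library. Both genes have annotated overlaps with neighbors, MAFG with SIRT7 and MAFK with TMEM184A. Several genes named below have them too, among them NFE2L3 with HNRNPA2B1, RPS6KA5 with DGLUCY and IL6 with STEAP1B. The effect of these overlaps on the counts was not tested.

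ATF1, a relative of CREB that binds the cyclic AMP response element, rose by 0.77 (27.4 ± 0.996 to 47.5 ± 2.73 CPM; SD, n = 4 each; adjusted p = 1.76e-05). CEBPG, a CEBP factor without a transactivation domain, fell by 0.28 on the log2 scale (212 ± 2.85 to 175 ± 6.27 CPM; SD, n = 4 each; adjusted p = 0.000177). Of the 6 larger proteins in the list that pair with small MAFs, all given here after their values were seen, 4 rose, 1 fell and 1 did not pass the test. NFE2, the erythroid partner, fell from 7.29 ± 0.823 to 1.66 ± 0.211 CPM (SD, n = 4 each; log2 change -1.64, adjusted p = 1.56e-05). NFE2L3 went from 7.26 ± 1.09 to 12.95 ± 0.875 CPM (SD, n = 4 each; log2 change 0.76, adjusted p = 0.000633) and BACH2, a repressor known in lymphocytes, from 3.71 ± 0.287 to 5.83 ± 0.587 CPM (SD, n = 4 each; 0.53, adjusted p = 0.00166). NFE2L1 was at 146 ± 4.85 and 147 ± 10.4 CPM (SD, n = 4 each; log2 change 0.0052, adjusted p = 0.990). NFE2L2, the regulator of antioxidant genes, rose by 0.17 (adjusted p = 0.00274) and BACH1, a repressor of heme oxygenase, by 0.29 (adjusted p = 0.0111), but neither passed the test after quantile normalization (adjusted p = 0.0637 and 0.0757; 0.000147 and 0.000131 at the lowest over all alternatives).

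Upstream of AP-1, MAP kinases signal to promoter factors such as ELK1 and SRF, which act on the serum response element of FOS. Of 32 genes for these kinases and factors, 18 were higher and 6 lower (56.2% and 18.8%, against 22.0% and 24.8% of all genes). Their median change was 0.20. Among all genes 6687 had a mean under 1 CPM, and among these 32 genes 0 did. The 3 largest rises were RPS6KA1, a kinase activated by ERK (26.1 ± 1.46 to 61.2 ± 4.63 CPM; log2 change 1.20, adjusted p = 9.14e-06), RPS6KA5, a kinase of CREB and histone H3 (5.89 ± 0.482 to 12.5 ± 0.682 CPM; 0.97, adjusted p = 3.25e-05), and ELK1 (80.5 ± 2.04 to 156 ± 2.95 CPM; 0.94, adjusted p = 8.55e-07; all SD, n = 4). SRF, named after its value was seen, went from 36.8 ± 2.59 to 68.7 ± 2.75 CPM (SD, n = 4 each; log2 change 0.88, adjusted p = 1.88e-05).

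The 3 largest falls in this list were in a coactivator and a pair of kinases. MRTFB, an SRF coactivator that responds to actin, went from 242 ± 4.11 to 78.9 ± 12.6 CPM (SD, n = 4 each; log2 change -1.62, adjusted p = 3.42e-05). MAP2K6, an activator of p38, went from 42.1 ± 1.75 to 13.7 ± 1.36 CPM (SD, n = 4 each; -1.55, adjusted p = 4.98e-06), and MAPK10, the JNK gene best known in neurons, from 11.9 ± 0.873 to 4.26 ± 0.629 CPM (SD, n = 4 each; -1.30, adjusted p = 5.13e-05). Every high glucose library was below every low glucose library for each of the 3. MRTFB was lowest in high glucose replicate 1, and its change without that library was -1.50.

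Another list held 15 genes, 0 of them with a mean under 1 CPM, that act on the stability or activity of AP-1 RNA and protein. Of these, 8 were higher and 3 lower (53.3% and 20%, against 22.0% and 24.8% of all genes), with a median change of 0.17, but the count of calls, 11 with all libraries, was 7 to 9 when 1 was left out, and it was 7 without low glucose replicate 1, 3 or 4 or high glucose replicate 2. ZFP36L2 and ZFP36L1, which promote the decay of AU-rich mRNAs, changed in opposite directions: ZFP36L2 went from 37.7 ± 1.59 to 79.3 ± 5.98 CPM (SD, n = 4 each; log2 change 1.05, adjusted p = 1.11e-05) and ZFP36L1 from 164 ± 5.82 to 128 ± 4.45 CPM (SD, n = 4 each; -0.35, adjusted p = 0.000171). ELAVL1, which stabilizes such mRNAs, rose by 0.50 (adjusted p = 5.37e-06), and DET1, part of a ubiquitin ligase for JUN, went from 7.64 ± 0.808 to 3.62 ± 0.920 CPM (SD, n = 4 each; log2 change -0.92, adjusted p = 0.00248). The acetyltransferase gene EP300 passed the test at 0.54 (adjusted p = 0.0398), but its 154 CPM in high glucose replicate 1 lay within the low glucose range, against 246 to 269 CPM in the other 3; the change was 0.73 without that library (adjusted p = 4.23e-05) and did not pass without any single one of the other 7 (adjusted p of 0.0741 to 0.0983) or with quantile normalization (adjusted p = 0.0774). HNRNPD, whose product binds AU-rich mRNAs, was at -0.14 (adjusted p = 0.0335), and did not pass without high glucose replicate 1 or 2 or any single low glucose replicate (-0.15 to -0.10, adjusted p of 0.0515 to 0.0854) or with median-of-ratios scaling (-0.096, adjusted p = 0.118).

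The last list held genes long described as AP-1 targets. Of 34 measured, 19 were higher and 2 lower (55.9% and 5.88%, against 22.0% and 24.8% of all genes), with a median change of 0.41, and 10 of the 34 had a mean under 1 CPM. HBEGF, an EGF receptor ligand, went from 6.11 ± 0.605 to 29.1 ± 2.19 CPM (SD, n = 4 each; log2 change 2.09, adjusted p = 2.76e-06). IL11, a cytokine of the IL-6 family, went from 36.5 ± 1.60 to 155 ± 9.002 CPM (SD, n = 4 each; 2.06, adjusted p = 7.17e-07), and DUSP1, a phosphatase of MAP kinases, from 10.7 ± 0.848 to 32.2 ± 3.01 CPM (SD, n = 4 each; 1.51, adjusted p = 1.07e-05).

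The 2 targets that fell were GJA1, the gap junction gene for connexin 43 (159 ± 4.94 to 103 ± 3.78 CPM; SD, n = 4 each; log2 change -0.62, adjusted p = 1.02e-05), and TIMP1, an inhibitor of metalloproteinases (272 ± 4.41 to 179 ± 21.7 CPM; SD, n = 4 each; -0.61, adjusted p = 0.000732). IL6, an inflammatory cytokine named after its value was seen, rose by 1.45 (adjusted p = 3.76e-05). The targets were listed from general knowledge of many cell types with earlier results of these data known, so the count is not independent evidence of a direction, and binding of AP-1 to them was not measured here.

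**Figure D4:**
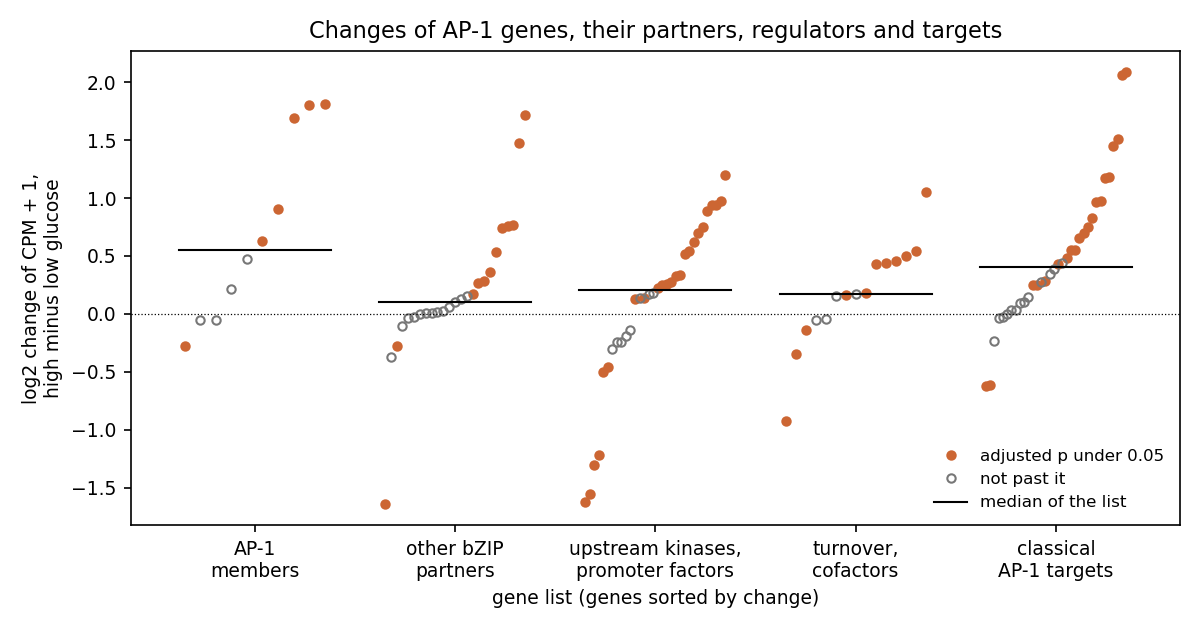
Log2 change of CPM + 1 (high minus low glucose) of each gene in 5 lists, sorted by change within a list; filled points have an adjusted p under 0.05, open points do not, and the line is the list's median. The medians are 0.55 for the AP-1 members, 0.10 for other partners with a leucine zipper, 0.20 for upstream kinases and promoter factors, 0.17 for turnover and cofactors and 0.41 for classical targets, against -0.0092 over all genes.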

How the data were processed

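RNA of 8 MDA-MB-157 samples was sequenced on an Illumina HiSeq, and grouping followed the sample titles. The authors deposited 1 table of CPM values scaled with TMM factors; the submitters' processing notes name edgeR and the hg38 build. The counting tool is not given in the sources used here. Of 21077 lines, 18 pseudoautosomal Y copies identical to the X lines were dropped. Of the values above 0 and under 200 reads, 72.0% to 73.3% in a library were within 0.002 of a whole number of reads, so whole reads were not recovered and no count test was run. Per-sample columns left unused numbered 0.

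log2(CPM + 1) was compared with limma 3.58.1 in R 4.3.3 (lmFit, eBayes with trend, 2-sided, no covariate), with Benjamini-Hochberg adjustment over 21059 genes and a threshold of 0.05. The code was tested on simulated data. Promoters and positions came from RefSeq GRCh38.p14, and lengths, overlaps and shared words from GENCODE mapped to GRCh37.

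The members and lists were chosen with earlier results of these data known. Besides the members, the rule named in each list up to 3 largest rises and 3 largest falls with an adjusted p under 0.05 and a mean of at least 5 CPM, and the 3 genes nearest to the most changed member. Another 10 genes were chosen after their values were seen, as were the family ratios. An item of the target list is not reported here by name. The 14 alternatives comprised another pseudocount, a filter on low values, a replicate block, 2 scalings, removal of the length trend and leaving out each library.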

Additional observations from a re-analysis of the deposited data

Results flagged for a closer look

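In 86 groups of 4 libraries (the members and the other named genes), the gap of the highest or lowest library to its nearest neighbor was compared with the range of the group by Dixon's ratio at the 95% level, which chance passes in about 4.3 of 86 groups. The ratio passed in 3 groups. JUNB in high glucose replicate 1 was at 25.6 CPM against 21.2 to 21.3 CPM in the other 3 libraries, a ratio of 0.970. FST in high glucose replicate 3 was at 54.9 CPM against 66.0 to 67.8 CPM in the other 3 libraries, a ratio of 0.865. NFE2L3 in low glucose replicate 4 was at 8.89 CPM against 6.63 to 6.92 CPM in the other 3 libraries, a ratio of 0.871.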

How the results depend on the processing

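Of 138 values of the members' changes under the alternatives, 135 kept their direction and their side of the threshold. The exceptions were FOSL2 at -0.12 with quantile normalization (adjusted p = 0.0280, up to 0.873 in the others), JUND at -0.28 with a replicate block (adjusted p = 0.0548, from 0.00408 in the others) and JUN, which ranged from -0.088 to 0.000102 when 1 library was left out. The cause was not tested. Same-numbered libraries did not deviate together (r of -0.040 to 0.069 across 11297 genes), and the replicate block kept 5 of the 6 member calls. FOSB could not be tested with the filter on low values or the length trend removed. The other named genes kept theirs in 438 of 462 values; 8 of the exceptions were EP300, 7 HNRNPD, 6 NFE2L1, and 1 each BACH1, NFE2L2 and HOOK2. NFE2L1, which did not pass the test, was at -0.093 with quantile normalization, at -0.0094 with the length trend removed and at -0.027 to 0.054 without 1 library. Counts of calls were within 1.5 times in 80 of 84 cases, and the turnover list ranged from 7 to 9 calls of 11 without 1 library. With a pseudocount of 0.1, the differences in log2 ratio were 1.98 for FOS and 1.14 for FOSB relative to FOSL2; these alternatives were chosen after seeing the data. Over genes with a mean of at least 1 CPM the median change was -0.042, and -0.0028 and -0.016 under the 2 other scalings. Depth limits FOSB, whose low glucose values include about 1 read.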
